A study of Mus musculus with 6 samples.

Results

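The TGF-beta and matricellular genes followed here numbered 10, in 6 heart libraries: the ligands Tgfb1, Tgfb2 and Tgfb3, the matricellular and adhesive matrix genes Postn, Fn1, Spp1, Tnc and Thbs1, the crosslinking enzyme gene Lox, and the contractile gene Acta2. They were taken by gene symbol, 10 of the 45777 genes in the table, and all 10 were among the 18328 tested, those that averaged 10 counts or more. The hearts came from BALB/c nude mice (CAnN.Cg-Foxn1nu/Crl), which lack thymus-derived T cells. By the study's methods the mice were female and 6 weeks old, an age that precedes the treatment, so they were older when the hearts were taken. Every group, Control included, carried subcutaneous tumours of MDA-MB-231, a human breast cancer cell line. Control mice received vehicle. The other groups received ginsenoside Rh2, a triterpenoid glycoside of ginseng, at 20 or 30 mg/kg daily (Rh2-20 mg/kg and Rh2-30 mg/kg), doxorubicin, an anthracycline that poisons topoisomerase II, at 2 mg/kg per dose to a cumulative 22 mg/kg (Dox), or both (named Rh2-20 mg/kg + Dox, and for the higher dose Rh2-30 mg/kg + Dox), within 3 weeks. Each condition had 1 library, pooled from the hearts of 5 mice, so no value has a replicate check and the spread between mice is not seen. The comparisons asked whether doxorubicin, Rh2 or both moved the RNA of genes that mark cardiac fibrosis.

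TGF-beta is secreted as a latent complex that is held in the matrix by latent TGF-beta binding proteins and is released by integrins, proteases or thrombospondin. The active ligand joins its receptors, which phosphorylate Smad proteins that enter the nucleus and switch on matrix, crosslinking and contractile genes. In the injured heart this turns resident fibroblasts into myofibroblasts, which lay down fibronectin, periostin, tenascin-C and collagen and contract through smooth muscle actin.

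Totals per library were close, from 86164411 to 90621002 counts, but the libraries differed in the RNA of cell type markers. The summed FPKM (the authors' length-scaled, depth-scaled fragment value) of 8 atrium markers was 1956 with Rh2-30 mg/kg, against 45.4 in Control and 72.5 with Rh2-20 mg/kg, and in the Dox libraries it was 400, 502 and 72.3 in rising Rh2 dose. Sln, which marks atrial myocytes, had 0 counts in Rh2-30 mg/kg + Dox, and 1 of the 8 atrium markers had 0 counts in Control. Of the 8, 4 were above Control in Rh2-30 mg/kg + Dox and 4 were below. The summed FPKM of 15 fibroblast markers was lowest in Rh2-30 mg/kg + Dox, at 593, and highest in Rh2-30 mg/kg, at 1208. That of 12 platelet and megakaryocyte markers was 102 with Dox alone and 152 with Rh2-20 mg/kg + Dox, against 12.3 to 32.7 in the other libraries. The summed FPKM of 11 cardiomyocyte markers, which define the labelled tissue, was lowest in Rh2-30 mg/kg, at 6144, and highest in Rh2-30 mg/kg + Dox, at 8567. All 11 were higher in Rh2-30 mg/kg + Dox than in Rh2-30 mg/kg, with a median log2 fold change of 0.66. In Rh2-30 mg/kg all 11 were below Control, with a median of -0.45. In whole heart RNA, fewer cells of a type and less RNA per cell cannot be told apart.

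On the length-scaled FPKM values, Acta2 was the most abundant of the 10, with a mean of 62.8 over the 6 libraries, followed by Postn at 28.3 and Fn1 at 25.3. Thbs1 averaged 7.31 FPKM, Tgfb1 4.32, Tgfb3 3.17 and Tgfb2 1.37. Lox, Tnc and Spp1 were the scarcest, at 0.676, 0.627 and 0.449 FPKM. The ranges over the libraries overlapped between all neighbours in this order except Tgfb3 (2.26 to 4.67 FPKM) and Tgfb2 (0.881 to 1.61 FPKM). The genes lie on separate chromosomes apart from Tgfb2 and Fn1. On GRCm38.p6, which is mm10, RefSeq places Tgfb1 at chr7:25687002-25705077, Tgfb2 chr1:186622787-186709697, Tgfb3 chr12:86056743-86079041, Postn chr3:54359267-54391041, Fn1 chr1:71585473-71653280 and Thbs1 chr2:118111876-118127133. Spp1 spans chr5:104435111-104441053, Tnc chr4:63959785-64047015, Acta2 chr19:34240336-34255585 and Lox chr18:52516060-52529867.

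**Figure D1:**
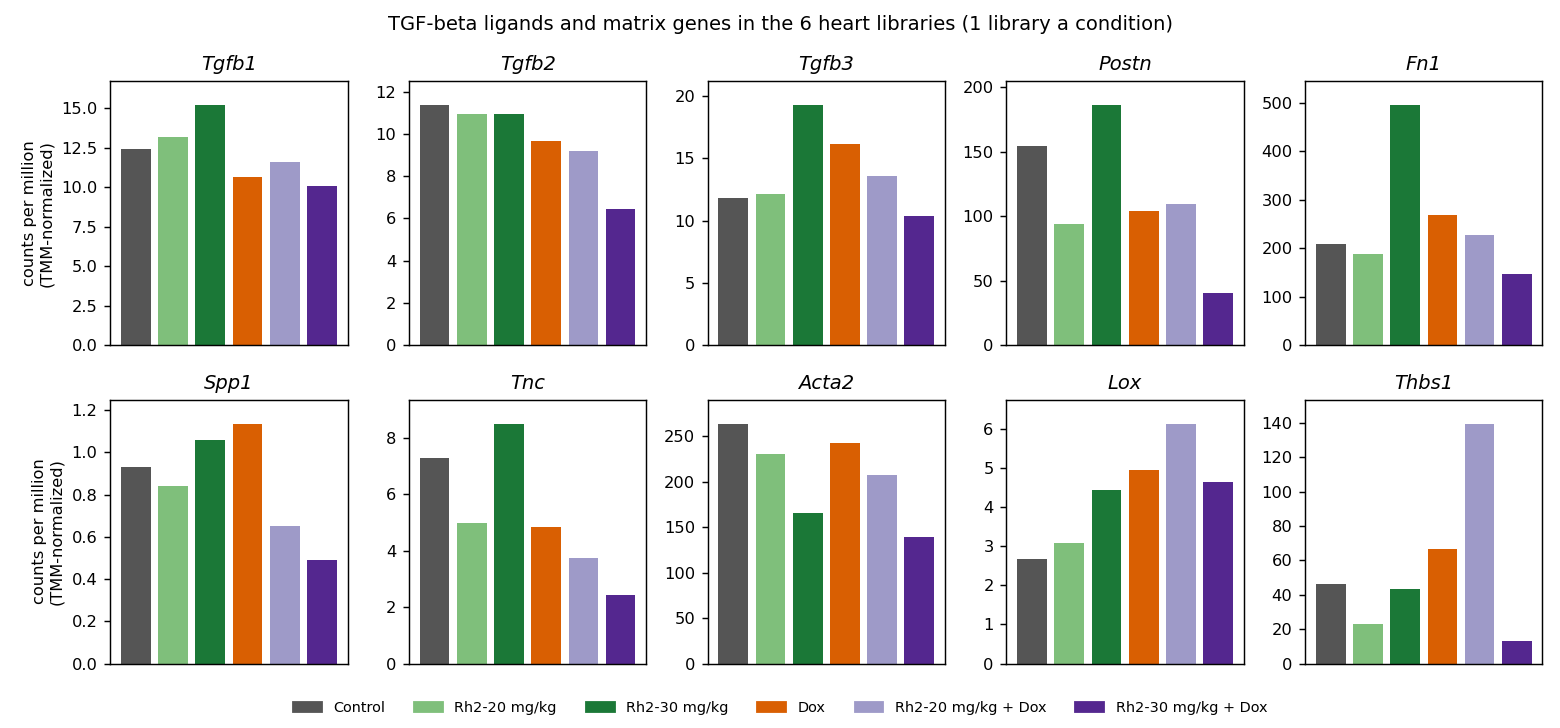
Bars give the TMM-normalized CPM of each gene in each library (1 library a condition, no error bars, each panel with its own linear axis from 0). The Rh2-30 mg/kg + Dox bar is the lowest for 9 of the 10 genes, the exception being Lox, whose lowest bar is Control. The share of all tested genes that were lowest in that library was not computed, so this count has no background.

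The ligand Tgfb1, made by many cells of the heart, had 1033 counts in Control, 1185 with Rh2-20 mg/kg, 1440 with Rh2-30 mg/kg, 892 with Dox, 1063 with Rh2-20 mg/kg + Dox and 877 with Rh2-30 mg/kg + Dox. Its TMM-normalized level was 12.4 to 15.2 CPM (counts scaled to library size) without Dox and 10.1 to 11.6 with Dox, so the groups did not overlap. Tgfb2, which also serves in heart valve formation, had 946, 983 and 1035 counts in Control, Rh2-20 mg/kg and Rh2-30 mg/kg and 813, 840 and 561 in the Dox libraries of the same Rh2 doses. Its normalized levels did not overlap either, being 10.9 to 11.4 without Dox and 6.46 to 9.68 with it. Tgfb3 had 983, 1095 and 1828 counts in Control, Rh2-20 mg/kg and Rh2-30 mg/kg and 1359, 1246 and 902 in the Dox libraries in rising Rh2 dose. The Tgfb3 libraries with and without Dox overlapped, and the highest and lowest of all 6 were the Rh2-30 mg/kg libraries without and with Dox. The highest library exceeded the lowest 1.51-fold for Tgfb1, 1.76-fold for Tgfb2 and 1.86-fold for Tgfb3. The median over all tested genes was 1.52-fold.

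Periostin (Postn), a matricellular protein of activated fibroblasts, had 12890 counts in Control, 8472 with Rh2-20 mg/kg, 17667 with Rh2-30 mg/kg, 8773 with Dox, 10032 with Rh2-20 mg/kg + Dox and 3514 with Rh2-30 mg/kg + Dox. The last library stood apart below the other five, and the order of the others did not follow Dox. Tenascin-C (Tnc), a large matricellular glycoprotein of injury borders, had 605, 449 and 805 counts in Control, Rh2-20 mg/kg and Rh2-30 mg/kg and 406, 342 and 212 in the Dox libraries in rising Rh2 dose. All 3 Tnc libraries with Dox lay below all 3 without, 2.45 to 4.84 against 4.99 to 8.5 CPM. The smallest of these gaps was narrow, between Dox and Rh2-20 mg/kg.

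Postn and Tnc had the most alike profiles of any pair among the 7 genes other than the ligands, with a root mean square difference of 0.25 on the log2 scale over the 6 libraries. With the ligands included, Tgfb1 and Tgfb2 (0.184), Acta2 and Tgfb2 (0.23) and Spp1 and Tgfb2 (0.25) were at least as alike. Postn and Tnc stood lowest in the same library, but so did every other gene followed here except Lox. How many of all tested genes were lowest there was not computed. The sequences before the starts of Postn and Tnc are shown for their likeness among the 7 genes only. They are 250 bases of RefSeq on GRCm38.p6, written 5′ to 3′ on the gene's strand, with TATAAA, the core of the TATA box, and CAGAC, a Smad-binding letter run, searched on both strands and set in capitals. Each gene has 2 listed starts. The Postn runs are chr3:54359017-54359266 and chr3:54360857-54361106 on the plus strand, before its upstream and its downstream start. The Tnc run is chr4:64047016-64047265 on the minus strand, before its upstream start, and the window before its downstream start, chr4:64046937-64047186, shares most of its bases and is not repeated.
Postn, upstream start: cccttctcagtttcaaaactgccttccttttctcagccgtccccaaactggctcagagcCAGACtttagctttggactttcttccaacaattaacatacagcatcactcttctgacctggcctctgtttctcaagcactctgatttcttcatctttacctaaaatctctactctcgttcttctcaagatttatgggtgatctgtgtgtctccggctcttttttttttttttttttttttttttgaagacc
Postn, downstream start: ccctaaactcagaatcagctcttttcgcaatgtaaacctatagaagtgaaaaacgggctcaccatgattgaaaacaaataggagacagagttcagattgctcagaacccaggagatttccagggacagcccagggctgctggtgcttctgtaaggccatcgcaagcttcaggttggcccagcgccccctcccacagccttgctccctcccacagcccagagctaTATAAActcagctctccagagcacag
Tnc: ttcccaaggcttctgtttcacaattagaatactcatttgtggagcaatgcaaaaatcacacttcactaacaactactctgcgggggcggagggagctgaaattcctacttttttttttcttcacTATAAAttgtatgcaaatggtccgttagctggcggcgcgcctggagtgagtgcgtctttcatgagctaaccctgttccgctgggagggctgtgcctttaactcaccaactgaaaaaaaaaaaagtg
Before the upstream Postn start there is no TATAAA and 1 CAGAC, ending 186 bases before the start. Before the downstream Postn start there is 1 TATAAA, ending 20 bases before the start, and no CAGAC. The printed Tnc run holds TATAAA once, ending 120 bases before the start, and no CAGAC, while the window before the downstream Tnc start holds both, TATAAA once and CAGAC once. Of all 32851 promoters listed, 12.4% hold TATAAA and 42.2% hold CAGAC in the same window, and these matches describe letters and not occupied sites. Promoters were listed for 6 of the 10 genes, and not for Fn1, Thbs1, Tgfb3 or Lox.

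Fibronectin (Fn1), the adhesive matrix protein on which periostin and collagen assemble, had 17430 counts in Control, 16946 with Rh2-20 mg/kg, 46949 with Rh2-30 mg/kg, 22559 with Dox, 20877 with Rh2-20 mg/kg + Dox and 12737 with Rh2-30 mg/kg + Dox. Rh2-30 mg/kg was far above the other libraries, which lay within a narrower band. Osteopontin (Spp1), a cytokine-like phosphoprotein of macrophages and injured tissue, had 77, 75 and 100 counts in Control, Rh2-20 mg/kg and Rh2-30 mg/kg and 95, 59 and 42 in Dox and the combinations in rising Rh2 dose. These low counts leave wide counting intervals, and the groups with and without Dox overlapped.

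Thrombospondin-1 (Thbs1), a platelet alpha-granule and matrix protein that can activate latent TGF-beta, had 3832 counts in Control, 2091 with Rh2-20 mg/kg, 4090 with Rh2-30 mg/kg, 5605 with Dox, 12783 with Rh2-20 mg/kg + Dox and 1163 with Rh2-30 mg/kg + Dox. Its highest and lowest libraries were thus the 2 combinations, 10.4-fold apart, and the 3 libraries without Dox lay between. Lysyl oxidase (Lox), which crosslinks collagen and elastin, had 222, 277 and 419 counts in Control, Rh2-20 mg/kg and Rh2-30 mg/kg and 415, 561 and 402 in Dox and the combinations in rising Rh2 dose. All 3 Lox libraries with Dox lay above all 3 without, 4.63 to 6.13 against 2.67 to 4.42 CPM, but Rh2-30 mg/kg came close to the Dox libraries. Smooth muscle alpha-actin (Acta2), the contractile protein of vessels and myofibroblasts, had 21968 counts in Control, 20744 with Rh2-20 mg/kg, 15730 with Rh2-30 mg/kg, 20398 with Dox, 19008 with Rh2-20 mg/kg + Dox and 12127 with Rh2-30 mg/kg + Dox. With and without Dox it was lower at the higher Rh2 dose. Acta2 shares long near-identical stretches with Acta1, Actc1 and Actg2, and its counts depend on how the authors' tools assigned such reads.

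Over the 6 libraries, 6 of the 10 genes had a highest library at least 2-fold above the lowest, against 28.4% of all tested genes: Thbs1, Postn (4.61-fold), Tnc (3.47-fold), Fn1 (3.38-fold), Spp1 (2.32-fold) and Lox (2.29-fold). Acta2 (1.89-fold) and the 3 ligands did not reach it.

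Doxorubicin alone moved none of the 10 past 2-fold against Control, where 5.44% of tested genes were at least 2-fold higher and 3.58% at least 2-fold lower. The median log2 fold change of the 10 was 0.09, against -0.01 for all tested genes, with 5 of the 10 above 0. The log2 fold changes below come from TMM-normalized counts, and each interval is a 95% interval that adds to the counting error a single dispersion over genes of 0.0285, estimated with the 6 libraries as 1 group. The interval left out 0 for 1 of the 10, against 11.1% of tested genes, and that was Lox at 0.89 (0.17 to 1.60). Tnc was at -0.59 (-1.29 to 0.11), Postn at -0.57 (-1.24 to 0.11) and Thbs1 at 0.54 (-0.14 to 1.21). With the larger dispersion that a likelihood estimate gives, 0.0865, no interval of the 10 left out 0 for Dox against Control, against 4.98% of tested genes.

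**Figure D2:**
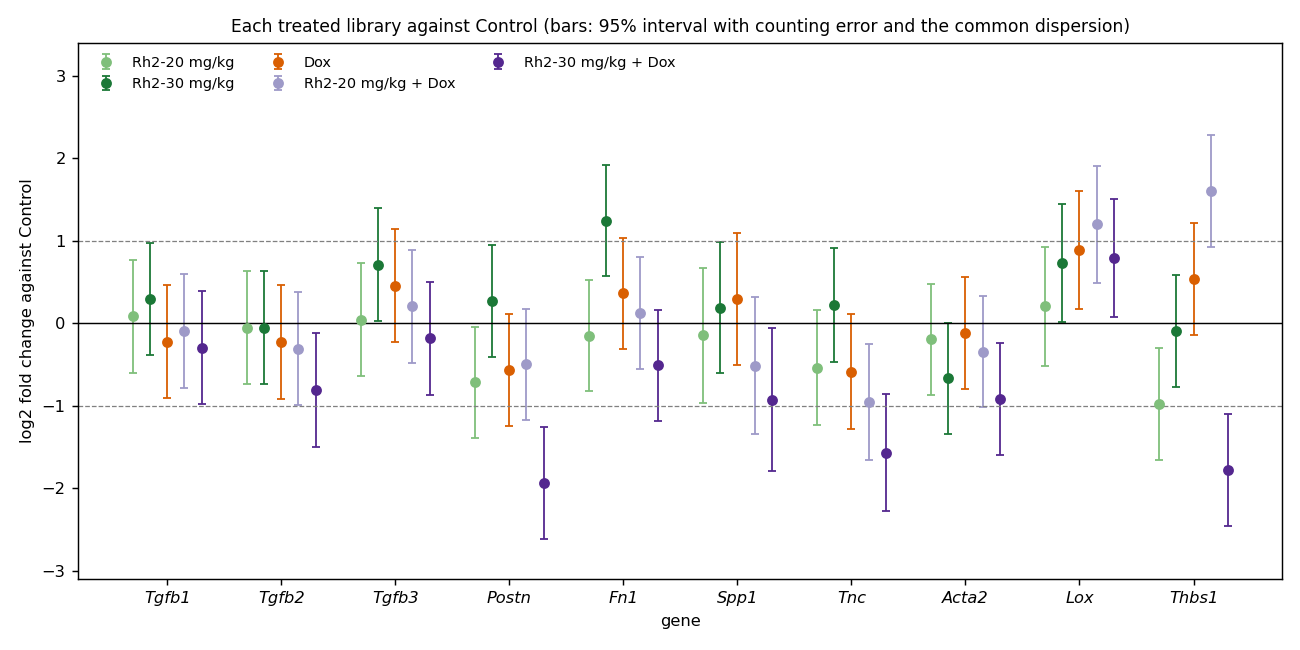
Points are log2 fold changes of each treated library against Control and bars are 95% intervals with counting error and the common dispersion. Dashed lines mark 2-fold. Fn1 with Rh2-30 mg/kg (1.24), Lox (1.20) and Thbs1 (1.60) in Rh2-20 mg/kg + Dox, and Postn (-1.94), Tnc (-1.57) and Thbs1 (-1.78) in Rh2-30 mg/kg + Dox lie beyond them.

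Rh2 without Dox was set against Control at each dose. In Rh2-20 mg/kg none of the 10 reached 2-fold against Control, where 3.35% of tested genes were at least 2-fold higher and 2.8% lower, and the intervals left out 0 for 2 of the 10, against 6.14% of tested genes, with Thbs1 at -0.99 (-1.67 to -0.31) and Postn at -0.72 (-1.39 to -0.04). The larger dispersion left 0 of the 10, against 2.89%. In Rh2-30 mg/kg, 1 of the 10 was at least 2-fold higher, against 8.48% of tested genes, and none was 2-fold lower, against 1.63%. That gene was Fn1, 2.37-fold higher, at 1.24 (0.57 to 1.92). Tgfb3 at 0.71 (0.02 to 1.39) and Lox at 0.73 (0.01 to 1.44) were the others whose interval left out 0, making 3 of the 10 against 13.2% of tested genes. The larger dispersion left 1, Fn1, against 6.08%. In the same ratio the median log2 fold change was 5.79 for 8 atrium markers, 1.03 for 10 mesothelium markers, 0.67 for 15 fibroblast markers and 0.66 for 15 macrophage markers. It was -0.45 for 11 cardiomyocyte markers, -0.30 for 8 pericyte markers and 0.01 for 9 endothelium markers. The part of these markers in the Fn1 value was not tested.

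In Rh2-20 mg/kg + Dox, 2 of the 10 were at least 2-fold higher than Control, against 5.13% of tested genes, and none was 2-fold lower, against 3.62%. They were Thbs1, 3.03-fold higher at 1.60 (0.92 to 2.28), and Lox, 2.29-fold higher at 1.20 (0.49 to 1.91). Tnc was at -0.96 (-1.66 to -0.26), and with it the intervals left out 0 for 3 of the 10, against 10.5% of tested genes. With the larger dispersion these were 2, Thbs1 and Lox, against 4.84%. Set against Dox alone, only Thbs1 reached 2-fold, at 1.06 (0.39 to 1.74), where 3.08% of tested genes were 2-fold higher and 3.44% lower, and it was the 1 gene of the 10 whose interval left out 0, against 7.12%, and with the larger dispersion there was none, against 3.16%. The median of the 10 was -0.15.

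In Rh2-30 mg/kg + Dox, 3 of the 10 were at least 2-fold lower than Control, against 6.85% of tested genes, and none was 2-fold higher, against 4.08%. Postn was 3.83-fold lower at -1.94 (-2.61 to -1.26), Thbs1 3.44-fold lower at -1.78 (-2.46 to -1.10) and Tnc 2.97-fold lower at -1.57 (-2.28 to -0.86). With the larger dispersion these 3 were the ones left whose interval left out 0, against 6.21% of tested genes. Spp1 at -0.93 (-1.79 to -0.06), Acta2 at -0.92 (-1.59 to -0.24) and Tgfb2 at -0.81 (-1.51 to -0.12) were lower by less. The 1 gene of the 10 above Control was Lox, at 0.79 (0.08 to 1.51). With these, the intervals left out 0 for 7 of the 10, against 13.5% of tested genes. The median of the 10 was -0.87, against -0.01 for all tested genes. In the same ratio the median was -1.49 for 10 mesothelium markers, -0.69 for 15 fibroblast markers and -0.57 for 15 macrophage markers. For 8 atrium markers it was -0.065, with 4 above 0 and 4 below. The part of these markers in the values of the 10 was not tested.

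Set against Dox alone, Rh2-30 mg/kg + Dox was below it for all 10 genes, with a median of -0.84 against -0.03 for all tested genes. At least 2-fold lower were 3 of the 10, against 7.35% of tested genes, and none was 2-fold higher, against 2.76%. Thbs1 was 4.98-fold lower at -2.32 (-3.00 to -1.64), Postn 2.58-fold lower at -1.37 (-2.05 to -0.69) and Spp1 2.32-fold lower at -1.22 (-2.07 to -0.36). Tnc at -0.98 (-1.70 to -0.27), Fn1 at -0.87 (-1.55 to -0.20) and Acta2 at -0.80 (-1.47 to -0.12) completed the 6 of 10 whose intervals left out 0, against 13.5% of tested genes, while Lox at -0.09 and Tgfb1 at -0.07 were close to 0. With the larger dispersion the intervals left out 0 for 2 of the 10, Postn and Thbs1, against 5.94%. In the same ratio the median over 8 atrium markers was -3.98, with 6 of 8 at least 2-fold lower, over 15 fibroblast markers -0.71, over 12 activated fibroblast markers -1.23, over 10 mesothelium markers -1.05 and over 15 macrophage markers -0.47, and their part in the values of Postn, Tnc and Spp1 was not tested.

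**Figure D3:**
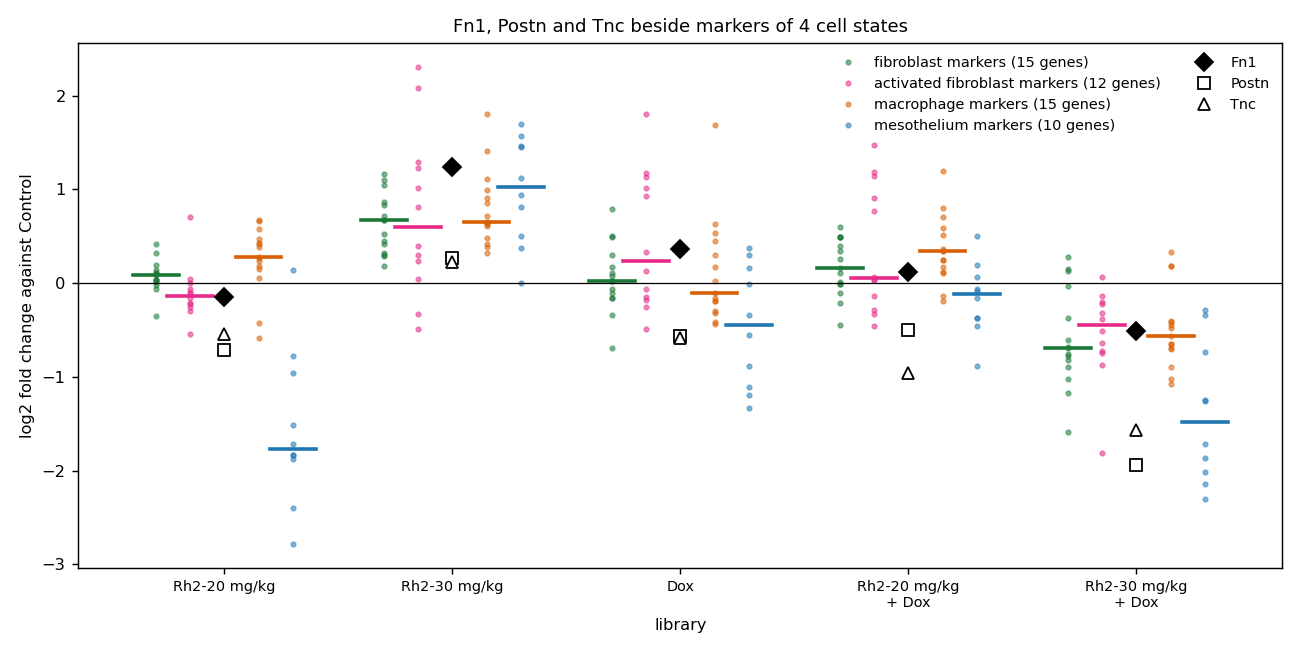
Black symbols give Fn1, Postn and Tnc and coloured points single marker genes of 4 kinds, as log2 fold changes against Control in the 5 treated libraries, with the median of each list as a bar. Postn (-1.94) and Tnc (-1.57) in Rh2-30 mg/kg + Dox lie below the fibroblast median (-0.69), and Fn1 (1.24) in Rh2-30 mg/kg above it (0.67). The mesothelium medians in these libraries are -1.49 and 1.03, in the same order. Single fibroblast markers reach -1.59 and 1.16 there, and single activated fibroblast markers -1.81 and 2.31.

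Thbs1 was highest in the 2 libraries where platelet genes were highest. Against Control, 12 of 12 platelet and megakaryocyte markers were at least 2-fold higher in Dox (median 2.71) and also with Rh2-20 mg/kg + Dox (median 3.47), and against Dox 12 of 12 were at least 2-fold lower in Rh2-30 mg/kg + Dox (median -3.55). Pf4, the platelet chemokine, had 524, 672 and 984 counts in Control, Rh2-20 mg/kg and Rh2-30 mg/kg and 2714, 3616 and 425 in the Dox libraries of the same Rh2 doses. Itgb3, the integrin chain of platelets that also binds latent TGF-beta, had 897, 1010 and 1791 counts without Dox and 3266, 6834 and 788 with it, in the same order. Thbs1 with Rh2-30 mg/kg + Dox was below Control by -1.78, while the platelet median there was -0.25. The 9 endothelium markers had medians between -0.23 and 0.01 against Control. The part of platelets in the Thbs1 values was not tested.

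**Figure D4:**
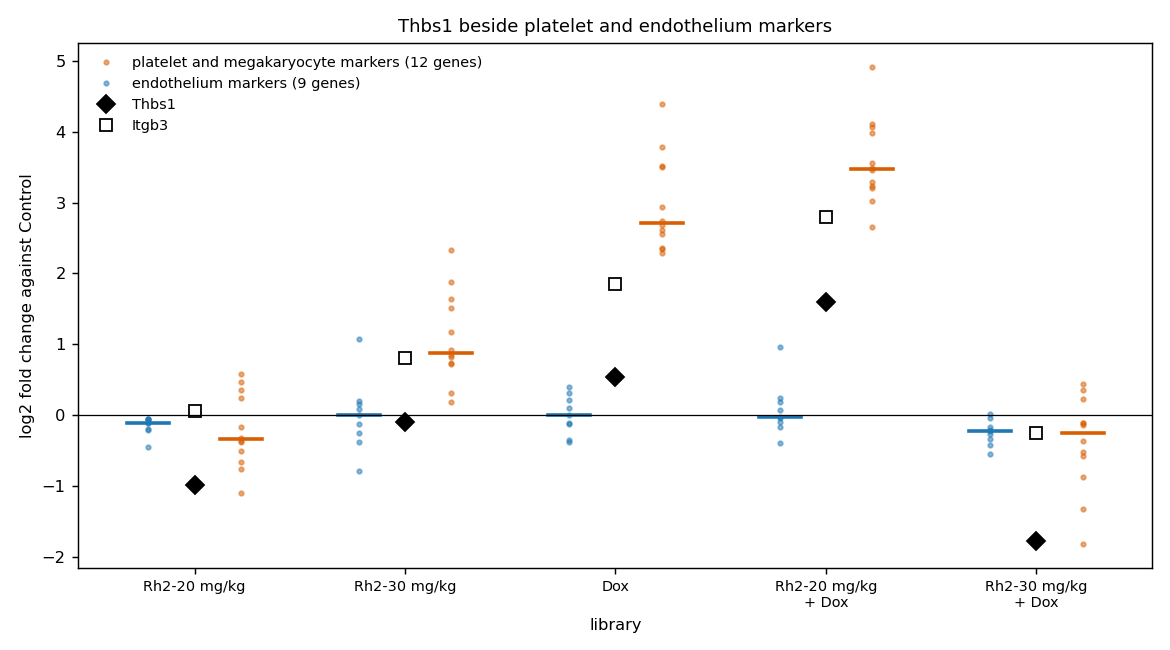
Log2 fold changes against Control of Thbs1 (diamonds), Itgb3 (squares), 12 platelet and megakaryocyte markers and 9 endothelium markers (points, with medians as bars) in the 5 treated libraries. Thbs1 and the platelet median are both highest in Rh2-20 mg/kg + Dox (1.60 and 3.47), while the endothelium medians stay between -0.23 and 0.01.

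Libraries with and without Dox were also set against each other at equal Rh2 dose. At 20 mg/kg, 1 of the 10 was at least 2-fold higher with Dox, against 4.09% of tested genes, and none was lower, against 2.87%. That was Thbs1, 6.01-fold higher at 2.59 (1.91 to 3.26). Lox was at 0.99 (0.29 to 1.70), and these were the 2 of 10 whose intervals left out 0, against 7.77%, and with the larger dispersion Thbs1 was the 1 left, against 3.74%. At 30 mg/kg, 5 of the 10 were at least 2-fold lower with Dox, against 12.1% of tested genes, and none was higher, against 2.4%. Postn was at -2.20 (-2.88 to -1.53), Tnc at -1.80 (-2.51 to -1.09), Fn1 at -1.76 (-2.43 to -1.08), Thbs1 at -1.69 (-2.37 to -1.01) and Spp1 at -1.12 (-1.97 to -0.27). With Tgfb3 at -0.89 (-1.58 to -0.21) and Tgfb2 at -0.76 (-1.45 to -0.07), the intervals left out 0 for 7 of the 10, against 19.3%. With the larger dispersion these were 4, Postn, Tnc, Fn1 and Thbs1, against 10% of tested genes. These 2 comparisons were added after the data were seen. At 30 mg/kg, 7 of 8 atrium markers, 11 of 15 fibroblast markers and 13 of 15 macrophage markers were at least 2-fold lower with Dox as well, and their part was not tested.

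**Figure D5:**
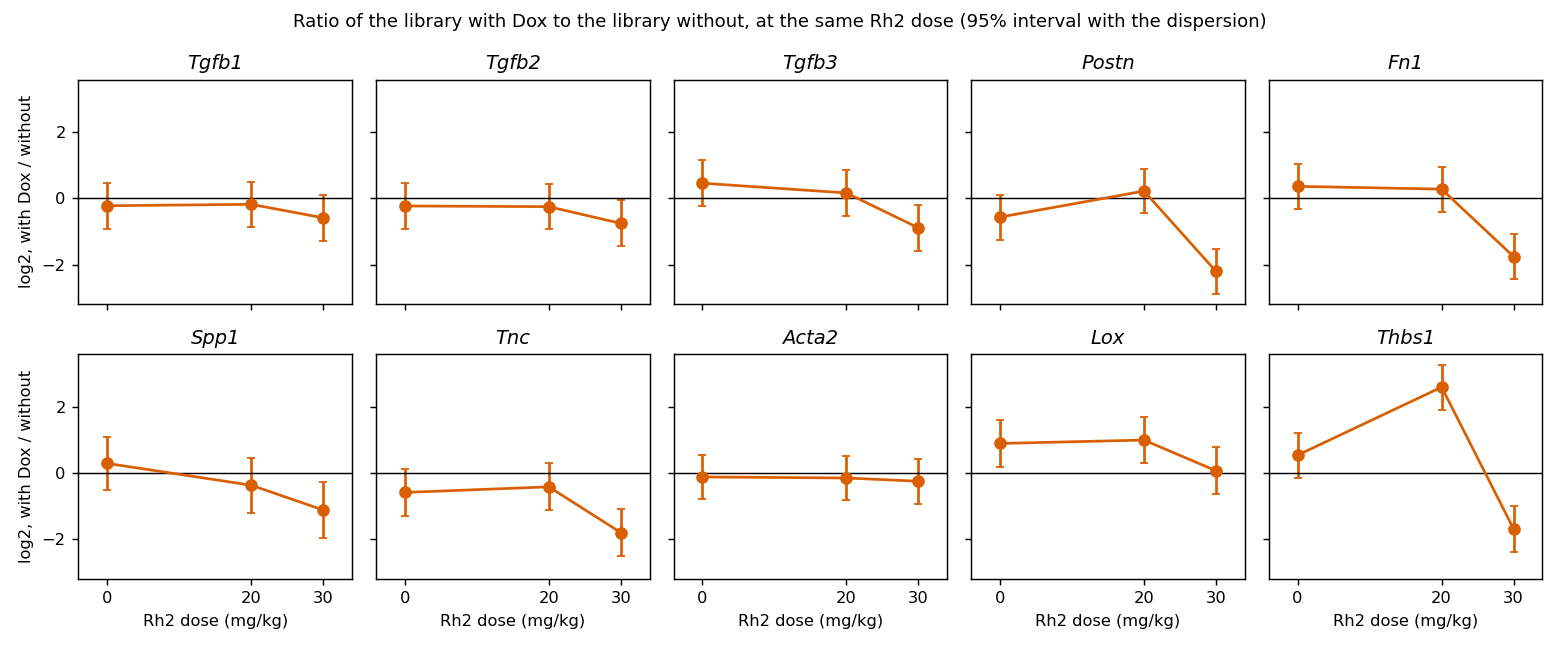
Each panel gives the log2 ratio of the library with Dox to the library without at 0, 20 and 30 mg/kg Rh2, with 95% intervals that hold counting error and the common dispersion. Thbs1 goes from 0.54 to 2.59 to -1.69 and Postn from -0.57 to 0.22 to -2.20, while Acta2 stays between -0.25 and -0.12.

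Across all 3 Rh2 doses, edgeR's quasi-likelihood test of the 3 libraries with Dox against the 3 without called none of the 10 at an adjusted p under 0.05 (Benjamini-Hochberg over 18328 genes), where 0.0273% of tested genes were called. The adjusted p of the 10 lay between 0.382 and 0.916. The libraries with and without Dox did not overlap for 3 genes that were lower with Dox (Tgfb1, Tgfb2 and Tnc), against 9.16% of tested genes, and for 1 that was higher (Lox), against 7.85%. The same 4 genes had an unadjusted p under 0.05 in this test, as did 10.1% of all genes. Tnc was at -0.91 (SE 0.29, edgeR adjusted p = 0.382), Lox at 0.63 (SE 0.23, adjusted p = 0.428), Tgfb2 at -0.39 (SE 0.16, adjusted p = 0.486) and Tgfb1 at -0.34 (SE 0.12, adjusted p = 0.416). The libraries of a side differ in Rh2 dose, so this spread includes any Rh2 effect. DESeq2's Wald test, an alternative, called none of the 10 either, against 2.32% of tested genes, with 5 at an unadjusted p under 0.05, against 11.3%.

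For the trend with Rh2 dose, with Dox as a term, no member was called by edgeR, nor was any of the 18328 genes (0% of tested genes), and 1 of the 10 had an unadjusted p under 0.05, as did 11.5% of all genes. That was Acta2, at -0.22 per 10 mg/kg (SE 0.05, edgeR adjusted p = 0.349). DESeq2's Wald test called it at an adjusted p of 0.00429, the 1 call among the 10, where it called 552 genes or 3.01% of those tested. For the interaction of Dox with Rh2 dose, edgeR again called 0 of the 10 and 0% of tested genes, and 1 of the 10 had an unadjusted p under 0.05, as did 9.48% of all genes. It was Tgfb3, at -0.41 per 10 mg/kg (SE 0.12, adjusted p = 0.519). DESeq2 called 143 genes (0.78%) and none of the 10 in the interaction.

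The receptors and Smads showed smaller ratios. None of 18 receptor, Smad and regulator genes reached 2-fold in any of the 9 comparisons of single libraries, and list medians lay between -0.13 and 0.08. In a single comparison, 2.4% to 8.48% of tested genes were at least 2-fold higher and 1.63% to 12.1% lower. None of the 18 passed edgeR's test at an adjusted p under 0.05 for Dox, the Rh2 trend or their interaction. Of all tested genes, 0.0273% passed for Dox and 0% for the trend and for the interaction. Smad7, the inhibitory Smad that TGF-beta itself induces, had the highest ratio of Dox to Control, with 2179 counts in Control and 3529 in Dox (0.68). Skil, a repressor of Smad transcription, had the lowest, with 4256 and 3426 counts (-0.33).

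Genes that hold or release latent TGF-beta varied more. Of 20 tested, 1 was 2-fold higher in Dox than in Control and 1 was 2-fold lower, against 5.44% and 3.58% of tested genes, with a median of 0.05. Itgb3 was the highest at 1.85. Itgb6, the chain of the integrin that activates TGF-beta on epithelia, was the lowest at -1.42, with 4865, 3322 and 4666 counts in Control, Rh2-20 mg/kg and Rh2-30 mg/kg and 1832, 1604 and 1335 in the Dox libraries of the same doses. All 3 Itgb6 libraries with Dox lay below all 3 without, as was so for 9.16% of tested genes. Against Dox, 3 of the 20 were at least 2-fold lower in Rh2-30 mg/kg + Dox, where 7.35% of tested genes were, and none was higher, with a median of -0.40.

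Of 20 genes known as TGF-beta targets, Dox had 2 at least 2-fold higher and 1 lower than Control, against 5.44% and 3.58% of tested genes, with a median of 0.06. Tagln, an actin-binding protein of smooth muscle, was the highest with at least 100 counts on average, at 1.46 from 1834 to 5083 counts. In Rh2-30 mg/kg + Dox, 4 of the 20 were 2-fold lower than Control and none higher (median -0.38), against 6.85% of tested genes lower, and 6 were 2-fold lower than Dox (median -0.70), against 7.35%. None of the 20 passed edgeR's test for Dox at an adjusted p under 0.05, against 0.0273% of tested genes.

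Among 27 other matricellular genes, 10 were at least 2-fold higher in Rh2-30 mg/kg than in Control and none lower, against 8.48% and 1.63% of tested genes, with a median of 0.63, beside the atrium and fibroblast markers of that library given above. In Dox 4 were 2-fold higher and none lower (median 0.26), against 5.44% and 3.58% of tested genes. Ccn3, a CCN family protein, was the highest there at 2.26, with 140 counts in Control and 678 in Dox. Sparc, a collagen-binding protein, was the lowest at -0.67, with 15210 and 9650. In Rh2-30 mg/kg + Dox against Dox, 4 of the 27 were 2-fold lower, against 7.35% of tested genes, and none higher (median -0.40).

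Of 15 lysyl oxidase and collagen-crosslinking genes other than Lox, none reached 2-fold in Dox against Control (median 0.05). Of all tested genes, 5.44% were at least 2-fold higher there and 3.58% lower. None reached it in Rh2-30 mg/kg + Dox against Dox either (median -0.34), where 2.76% of tested genes were higher and 7.35% lower. Set against Rh2-30 mg/kg, 6 of the 15 were 2-fold lower in Rh2-30 mg/kg + Dox (median -0.62), against 12.1% of tested genes. In Rh2-30 mg/kg, 2 of the 15 were 2-fold higher than Control, against 8.48%. P4ha1, a collagen prolyl hydroxylase, was the highest in Dox at 0.55 and Loxl2, a lysyl oxidase relative, the lowest at -0.79. Of 18 receptors for matricellular proteins, 2 were 2-fold higher in Dox, against 5.44% of tested genes, and none lower (median 0.14), led by Itgb3, with Itgb1 the lowest at -0.35. Of 18 smooth muscle and myofibroblast contractile genes other than Acta2, 4 were 2-fold higher in Dox than in Control, against 5.44% of tested genes, and none lower (median 0.36), with Tagln the highest and Srf, a transcription factor of actin genes, the lowest at -0.28. In the same ratio 3 of 9 markers of large-vessel smooth muscle (median 0.80) and 6 of 8 atrium markers (median 3.72) were at least 2-fold higher. Several of the 9 large-vessel markers are also among the 18 contractile genes, so these counts are not independent. The part of the vessel and atrium markers was not tested. In Rh2-30 mg/kg + Dox, 5 of these 18 were 2-fold lower than Dox, against 7.35% of tested genes, and none higher (median -0.37). Acta2, at -0.12 in Dox against Control, was thus not among those that were 2-fold higher. None of these lists had a gene past edgeR's adjusted p of 0.05 in the 3 tests. Of all tested genes, 0.0273% were past it for Dox and 0% for the Rh2 trend and the interaction.

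For each gene with a 2-fold range, the genes with the most alike profile among 13960 with at least 100 counts on average were found by the root mean square difference of centred log2 values over the 6 libraries. For Fn1 they were Procr (0.07), Aqp11 (0.11) and Foxc2 (0.12). For Tnc they were Cd83 (0.08), Cks2 (0.11) and Atf3 (0.11), and Atf3 (0.18) was also the nearest to Postn, before Atp6v0a4 (0.18) and Grm7 (0.18). For Lox they were Htra3 (0.11), Glis3 (0.12) and Acer2 (0.13). The nearest to Spp1 were Blnk (0.12), Tnfsf9 (0.12) and Cdhr4 (0.12). Thbs1 had no gene so near, with Sh3bgrl2 (0.37), Ctla2a (0.43) and Plek (0.43) closest. With 6 points a gene this likeness is a description of these libraries.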

How the data were processed

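RNA of pooled mouse hearts was captured (SureSelect) and sequenced. The authors trimmed low-quality reads (Trimmomatic is named in the submitters' notes), aligned them to mm10 with HISAT2 2.1.0 and estimated abundance with StringTie 2.1.3b on the annotation of the UCSC table browser. The deposited counts are whole numbers per gene without normalization. The deposited FPKM values are scaled to transcript length and mapped fragments by the authors. The deposited TPM values, scaled by the authors to 1 total per library, were not used for any result. Whether counting used strand is not given in the sources used here. The transcripts Gm26169, Gm35655, Gm31095 and 8030451A03Rik, which overlap Tgfb2, Postn or Tnc, had at most 2 counts in a library.

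Tests ran in R 4.3.3, using edgeR 4.0.16 (quasi-likelihood tests, two-sided, Benjamini-Hochberg), DESeq2 1.42.0 and limma 3.58.1, with TMM normalization. Genes averaging 10 counts or more were tested. Figures used matplotlib 3.10.9 in Python 3.11.15. Single-library ratios used a prior count of 0.5 and a threshold of 2-fold. Their 95% counting intervals come from the exact conditional binomial distribution. The 95% intervals with a common dispersion are a normal approximation that adds it to the counting error. The dispersion alone gives 0.67 to either side on the log2 scale. Counting intervals cover counting error only. At 86164411 to 90621002 counts per library, counting error was widest for Spp1, which had 42 to 100 counts a library. In simulated data on 18328 genes, 97.5% of 200 genes changed 4-fold were recovered for Dox and for the Rh2 trend, and 61.5% for the interaction. Every simulated gene had the dispersion of 0.0285 and no other effect was added. Recovery of smaller changes, or of genes that vary more, is therefore not shown. Named genes are the 10, the extremes of each list in Dox against Control among genes with at least 100 counts on average, list genes passing a test, the 3 nearest profiles of genes with a 2-fold range, and, chosen after their values were seen, Pf4 and Sln. One gene that this rule names is not reported here. The 10 genes and the lists were chosen with earlier results of these data known. Alternatives were DESeq2's size factors and Wald test, a prior count of 2, FPKM plus 1 or plus 0.1, limma on FPKM, no filter, Rh2 dose as a block, each library left out, and, chosen after seeing the data, the likelihood dispersion. Proteins and tissue sections were not analysed here.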

Additional observations from a re-analysis of the deposited data

Results flagged for a closer look

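Thbs1 moved in opposite directions with Dox at the 2 Rh2 doses. Its log2 ratio of the library with Dox to the library without was 2.59 at 20 mg/kg and -1.69 at 30 mg/kg, each from 1 pair of pooled libraries. The difference between the doses was not tested for these pairs, and the interaction over all 6 libraries had an edgeR adjusted p of 0.916. That interaction takes Rh2 dose as a straight line, so it cannot decide on a ratio that rises and then falls. Without Rh2 the ratio was 0.54. Platelet markers moved in the same directions, with 12 of 12 at least 2-fold higher at 20 mg/kg and 10 of 12 at least 2-fold lower at 30 mg/kg, and their part was not tested.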

How the results depend on the processing

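With FPKM plus 1, the genes past 2-fold fell to 1 in Rh2-20 mg/kg + Dox against Control (2 by counts) and to 3 in Rh2-30 mg/kg + Dox against Rh2-30 mg/kg (5 by counts), which understates changes of low genes by construction. Of 90 single ratios of the 10 genes, 48 lay outside their counting interval with FPKM plus 1 and 26 with FPKM plus 0.1, and none past 2-fold changed sign. With the likelihood dispersion, the intervals that left out 0 numbered 0 for Dox, 0 and 1 for the lower and higher Rh2 dose and 3 for Rh2-30 mg/kg + Dox against Control, 0 and 2 for the lower and higher Rh2 dose with Dox against Dox, and 1 and 4 against Rh2-20 mg/kg and Rh2-30 mg/kg alone. Genes of the 10 at an unadjusted p under 0.05 numbered 2 by limma on FPKM plus 1 for Dox (4 by edgeR) and 2 without a filter for the interaction (1 with it). DESeq2 called 1 for the Rh2 trend (Acta2), and the cause of these differences was not tested.

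With libraries left out singly there were 2 to 3 genes at an unadjusted p under 0.05 for Dox, 1 to 4 for the Rh2 trend and 0 to 3 for the interaction. The interaction had 0 without Rh2-30 mg/kg and 0 without Rh2-30 mg/kg + Dox. No gene of the 10 passed an adjusted p of 0.05 in any of these fits. Estimates that changed sign in these fits were all uncalled. For Dox, Tgfb3 ranged from -0.27 to 0.17, Fn1 from -0.71 to 0.12 and Acta2 from -0.34 to 0.033, with the change of sign without Rh2-30 mg/kg or without Rh2-30 mg/kg + Dox. For the Rh2 trend, Tgfb3 ranged from -0.13 to 0.16, Fn1 from -0.20 to 0.28, Postn from -0.35 to 0.039, Spp1 from -0.34 to 0.0045 and Thbs1 from -0.40 to 0.081. For the interaction, Acta2 ranged from -0.37 to 0.23 and Thbs1 from -3.30 to 0.61. A prior count of 2, size factors by DESeq2, FPKM plus 0.1 and the Rh2 dose as a block changed no count of calls among the 10 by over 1.5 times. Genes of all 18328 called for Dox numbered 5 by edgeR, 425 by DESeq2 and 0 with the Rh2 dose as a block, which sets libraries with and without Dox against each other at equal Rh2 dose.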

Other observations

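Of the genes in the marker lists, 2 passed edgeR's test of Dox across the Rh2 doses at an adjusted p under 0.05, both of the cell cycle. Cenpf, a kinetochore protein, had 2830, 2922 and 2768 counts in Control, Rh2-20 mg/kg and Rh2-30 mg/kg and 1097, 1243 and 1196 in the Dox libraries of the same doses (-1.24, adjusted p = 0.0381). Nek2, a centrosome kinase, had 136, 155 and 151 counts without Dox and 20, 15 and 14 with it (-3.13, adjusted p = 0.0401). The libraries with and without Dox did not overlap for either gene, where 9.16% of tested genes were lower with Dox without overlap. Both genes were picked by a test of the same libraries, so the lack of overlap is no separate support. With the Rh2 dose as a block, by limma on FPKM plus 1, and without Control, Rh2-20 mg/kg, Rh2-20 mg/kg + Dox or Dox, 0 of the 18328 genes passed, these 2 included. Without a block, DESeq2 called 425 genes, and at an unadjusted p under 0.05 there were 1598 with the block and 1852 without.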
